A study of Mus musculus with 4 samples.

Results

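The cytosolic ribosomal protein genes were taken by name: every gene whose symbol starts with Rpl or Rps followed by a digit, or with Rplp, and Rpsa, with pseudogene names ending in -ps left out. The rule gave 96 of the 21027 genes present in both tables. Of these, 77 are core ribosomal proteins (46 of the large and 31 of the small subunit), and 19 are other genes that carry the same kind of name, among them paralogs, a retrogene and the S6 kinases, which are not ribosome subunits. The labels name the cells as group 3 innate lymphoid cells (ILC3s), which produce IL-22 at the gut surface. The cells had been sorted from the lamina propria of the small intestine of mice aged 6 to 8 weeks with Cxxc1flox/flox alleles and a cre transgene, and were measured on the BD Rhapsody single-cell system. The 4 samples in the labels are 2 libraries of each of 2 replicates, so the number of replicates was 2, and the labels do not say that they came from separate animals. All groups described here share these alleles and the transgene, and no Cxxc1-sufficient group was analysed here. The comparisons below are therefore between classes of cells of 1 genotype.

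Each cytosolic ribosome holds 1 set of ribosomal RNAs and a fixed set of ribosomal proteins, which are made in nearly equal amounts and joined to the RNA in the nucleolus. The proteins of the small subunit lie around the site where the messenger RNA is decoded, and those of the large subunit around the site where the peptide bond forms and the tunnel through which the new protein leaves. Most messenger RNAs of ribosomal proteins start with a run of pyrimidines, the 5' TOP motif, through which the kinase complex mTORC1 and the protein Larp1 set their translation. Lymphocytes raise ribosome production when they are activated and grow, and plasma cells keep a large translation machinery to secrete antibody.

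Replicate 1 gave 2077 tagged cells and replicate 2 gave 4532, from captures of 8064 and 15793 cells, and the replicates shared 7 cell index numbers. The filters left 1906 and 4179 cells. Their median depths were 4200 and 2364 counted molecules (UMIs, unique molecular identifiers), and their totals 11267840 and 11896562 UMIs. Cells were put in a class when they had a UMI of at least 3 of the 10 marker genes of that class and of at least 2 more than for any other class. This gate took 1426 and 2995 cells and left 480 (25.2%) and 1184 (28.3%) without a class. At the limit of the gate lay 302 and 731 of the gated cells, and just outside it 319 and 698 cells. The ILC3 gate held 291 and 1008 cells, the T cell gate 240 and 1548, the plasma cell gate 399 and 26, and the stromal gate 396 and 291. T, plasma and stromal cells were thus present in a preparation labelled as sorted ILC3s. Cells of the ILC3 gate are called ILC3s from here on. Of these cells, 132 and 377 had a UMI of a CD3 or T cell receptor gene, and the 10 ILC3 markers together reached 7891 and 7053 CPM (counts of a gene relative to the class total) in them against 438 and 706 CPM in T-gated cells. The 10 markers of natural killer cells and ILC1s summed to 6198 and 9776 CPM in T-gated cells. Of these 10 markers, 3 and 1 had 0 UMIs there, so the sum does not show that each was high. Cxxc1 UMIs were still counted, at 35.1 CPM (95% exact Poisson interval 26.1 to 46.1) and 38.3 CPM (32.4 to 45.0) in ILC3s and 68.6 CPM in T-gated cells of both replicates. Levels were 111 and 70.6 CPM in plasma-gated and 70.7 and 57.0 CPM in stromal-gated cells. The data hold 1 count per gene and not the part of the transcript it came from. These levels therefore do not check the deletion. The state of the deletion in each class is not known and cannot be told apart from class in the comparisons below.

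Starts of 5 members are shown because the results turn on these genes. Rpl13a and Rpsa had among the largest changes in T-gated cells, Rpl31 was the core member with the lowest T over ILC3 value, Rpl41 had the largest called change of a core member in plasma-gated cells, and Rps27l was the only member that met the rule used below for a class among the fitted ones. Each line gives 75 bases before and 25 after the start of transcription in RefSeq (GRCm38.p6), 5' to 3' on the strand of the gene, and capitals mark a CTTTCC or a CCGGAAGT.
Rpl13a, chr7:45128721-45128820, minus strand: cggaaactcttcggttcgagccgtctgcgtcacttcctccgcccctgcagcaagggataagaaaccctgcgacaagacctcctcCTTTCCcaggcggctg
Rpsa, chr9:120127691-120127790, plus strand: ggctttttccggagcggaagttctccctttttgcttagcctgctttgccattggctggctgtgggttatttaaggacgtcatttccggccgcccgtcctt
Rpl31, chr1:39367776-39367875, plus strand: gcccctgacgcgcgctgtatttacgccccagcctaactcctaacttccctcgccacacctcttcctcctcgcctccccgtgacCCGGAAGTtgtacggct
Rpl41, chr10:128549144-128549243, minus strand: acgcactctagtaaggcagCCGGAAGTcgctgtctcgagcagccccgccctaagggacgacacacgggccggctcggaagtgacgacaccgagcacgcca
Rps27l, chr9:66946011-66946110, plus strand: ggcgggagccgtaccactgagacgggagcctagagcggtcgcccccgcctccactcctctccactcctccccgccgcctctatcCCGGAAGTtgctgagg
CTTTCC is a pyrimidine run of the kind found at 5' TOP starts, and CCGGAAGT is a motif bound by ETS factors. Neither motif contains the other, and both strands were searched. RefSeq promoters were matched for 74 of the 96 members and 57 of the 77 core members. Within 50 bases of the start, 19 of these 57 core members (33.3%) held CTTTCC, against 10.3% of all 27025 genes with a promoter in the table. Of the 19, 18 held it on the strand of the gene. CCGGAAGT lay within the 300 bases from 250 before to 50 after the start in 11 of 57 core members (19.3%) and in 4.31% of all genes. Among core members called higher in T-gated cells in the comparison below, 4 of 17 with a promoter held CTTTCC, against 15 of 40 of the other core members. Of the starts shown, the CTTTCC of Rpl13a lies inside the transcript, and the start of Rpsa holds neither motif in this window. A match describes letters and is not a measured site.

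Ribosomal genes took a larger share of the UMIs in T-gated than in ILC3s. The 96 genes together held 7.06% and 7.80% of the UMIs of ILC3s in replicates 1 and 2 (mean 7.43% ± 0.527, SD, n = 2). T-gated cells had 10.7% and 11.3% (mean 10.97% ± 0.444, SD, n = 2). The groups did not overlap, and the share in T-gated cells was 1.51 and 1.45 times that in ILC3s. The median cell followed the sum, with 6.95% and 7.64% in ILC3s and 10.4% and 11.1% in T-gated cells. An exact permutation test, two-sided, gave p = 0.333, the smallest value that 2 against 2 allows (adjusted p = 0.400 over 6 comparisons of shares), so this design cannot pass 0.05. T-gated cells were shallower, with medians of 2712 and 2081 UMIs against 3680 and 2954. In cells of 1500 to 3000 UMIs, a band chosen after seeing the data, the shares were 9.92% and 11.3% in T-gated and 7.23% and 8.00% in ILC3s.

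Dendritic cells (DC) came between those classes and macrophages below them. DC-gated cells had 9.13% (52 cells) and 10.3% (9 cells), and macrophage-gated cells 6.00% (12 cells) and 6.89% (37 cells). The panel of ILC2s, the type 2 innate lymphocytes, took 4 cells in replicate 1 and 51 in replicate 2, with shares of 11.8% and 13.5%. Of these 51 cells, 50 had a CD3 or T cell receptor UMI, so they are called here by their panel only. These 3 classes had fewer than 20 cells in a replicate and entered no test. Among T-gated cells, those with a Cd4 and no Cd8a UMI had 10.6% (188 cells) and 11.3% (997 cells), and those with Cd8a and no Cd4 had 11.7% (7 cells) and 11.3% (177 cells). Both sets lay above the ILC3 shares in both replicates.

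Plasma-gated cells had the lowest shares in replicate 2 and not in replicate 1, and their place depended on what was counted. Ribosomal genes held 5.28% and 4.48% of all UMIs in them, while immunoglobulin genes held 47.0% and 54.6%. With immunoglobulin and mitochondrial UMIs left out of the total, the share was 10.9% and 11.1% in plasma-gated cells, 7.67% and 8.38% in ILC3s and 11.5% and 12.2% in T-gated cells. Plasma-gated cells thus lay below ILC3s on 1 total and above them on the other, without overlap on either. Stromal cells differed between the replicates, with 4.89% and 7.10% of all UMIs (mean 5.99% ± 1.56, SD, n = 2), and the higher replicate overlapped the ILC3 range (exact permutation test, two-sided, p = 0.667). Within each replicate the stromal share lay below the ILC3 share. A CD3 or T cell receptor UMI was present in 64 of 396 and 133 of 291 stromal-gated cells. The 10 T cell markers summed to 55.9 and 617 CPM in them. Whether this bears on the stromal shares was not tested. Without immunoglobulin and mitochondrial UMIs stromal cells had 5.31% and 7.51%, both below both ILC3 values (exact permutation test, two-sided, p = 0.333, the smallest possible). ILC3s with an Ncr1 UMI, a receptor of a natural-cytotoxicity-receptor subset, had 7.38% and 8.14%. Those with a Ccr6 UMI, a chemokine receptor of lymphoid-tissue-inducer-like cells, had 6.72% and 7.71%. The ranges of these subsets overlapped, while within each replicate the share was higher with Ncr1.

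**Figure D1:**
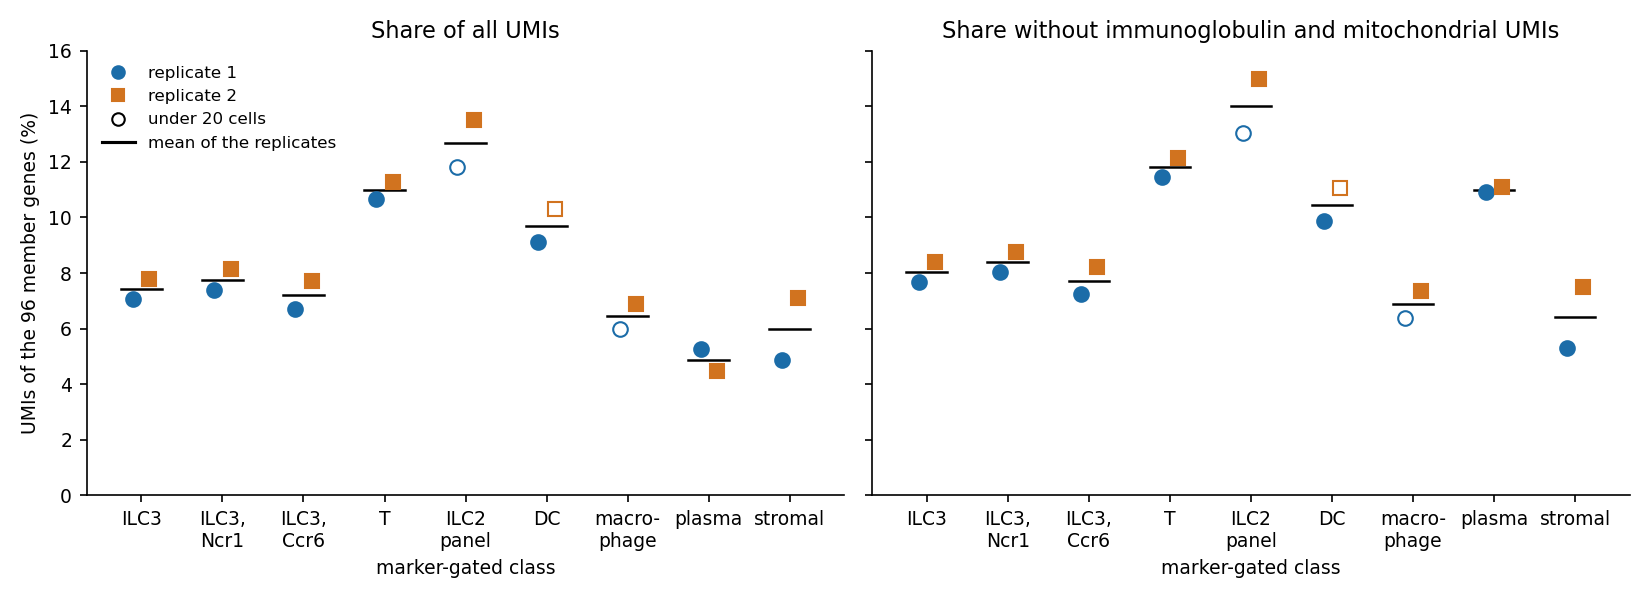
Percent of UMIs in the 96 ribosomal genes by marker-gated class, of all UMIs (left) and without immunoglobulin and mitochondrial UMIs (right). Points are the 2 replicates, open where a class had under 20 cells, and bars are their means; T-gated cells sit at 10.7% and 11.3% on the left, above ILC3s at 7.06% and 7.80%, and plasma-gated cells move from 5.28% and 4.48% on the left to 10.9% and 11.1% on the right.

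Within the plasma gate of replicate 1, cells in cycle carried more ribosomal UMIs. The 95 cells with UMIs of at least 3 of 12 cell cycle genes had 9.29% of UMIs in ribosomal genes (95% exact Clopper-Pearson interval 9.23 to 9.34), and the 282 cells with at most 1 of those genes had 3.37% (3.34 to 3.39), intervals that cover counting error only. Immunoglobulin genes held 27.4% and 56.6% of their UMIs. Without immunoglobulin and mitochondrial UMIs the shares were 13.7% and 8.64%. Member by member on that total, 75 of 76 core genes were higher in the cycling cells, with a median ratio of 1.65 and a range from 0.983 (Rps24) to 2.71 (Rpl13a). Of the 8798 genes with more than 3 UMIs in both sets, 3952 were higher in the cycling cells, with a median ratio of 0.943. Among the 931 of these with at least 400 CPM summed over both sets, 502 were higher, with a median of 1.05. Replicate 2 had 24 non-cycling plasma cells, with 3.71%, and 2 cycling ones, so the difference was measured in 1 replicate and has no replicate check. In T-gated cells the shares of cycling and non-cycling cells were 10.9% and 10.6% in replicate 1 and 11.6% and 11.3% in replicate 2. In ILC3s cycling cells (13 and 9 cells) had the lower share, with 6.28% against 7.10% and 7.72% against 7.80%. Cycling stromal-gated cells (8 and 2 cells) had the higher share of summed UMIs, with 5.92% against 4.88% and 8.66% against 7.08%. Their median cell had 4.70% against 4.73% in replicate 1 and 8.57% against 6.94% in replicate 2. In replicate 1 immunoglobulin genes held 17.3% of the UMIs of the cycling and 2.77% of the non-cycling stromal-gated cells.

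Levels of single members were compared on UMIs summed per replicate and class, as CPM scaled by TMM. UMIs were not divided by transcript length, so levels of different genes are UMI levels only. In ILC3s the 77 core members had a median of 659 and 766 CPM. Rps27, of the small subunit, had the highest mean over the classes, at 1683 and 2209 CPM in ILC3s and 2542 and 4003 CPM in T-gated cells. Next in mean level came Rpl17, Rps24, Rps26 and Rps12. The lowest was Rps10, with 5.51 and 2.59 CPM in ILC3s and at most 7.92 CPM in any class, followed by Rpl13a, Rpl10a, Rpl36 and Rpl19. Ribosomal proteins have many near-identical copies in the genome, and counting may split or lose their reads, so the low Rps10 level and the levels of Rps27, Rps27rt, Rpl36a and Rpl36al are uncertain.

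Most core members stood at higher levels in T-gated than in ILC3s, and 20 passed the test. By edgeR's quasi-likelihood test, 20 of 77 core members (26.0%) rose past an adjusted p of 0.05 and none fell, against 9.23% of all 11796 genes tested called higher and 13.4% called lower. At an unadjusted p under 0.05, 44 were higher and 0 lower (14.1% and 18.4% of all genes), and DESeq2 called 52 higher (5.32% of all genes) and 0 lower (8.61%). The median log2 fold change of the 77 was 0.69, and that of all genes was 0.01. In 73 of 77 the ratio was above 1 in both replicates, and in 66 (85.7%) both T-gated values lay above both ILC3 values, as in 27.5% of all genes. The small subunit gave 8 of 31 called with a median of 0.71, and the large subunit 12 of 46 with a median of 0.68. The number called ranged from 8 without the replicate block (5.77% of all genes called higher) to 59 when T-gated and ILC3 sums alone were fitted (16.6%), and cells thinned to 1500 UMIs gave 13 (10.8%).

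**Figure D2:**
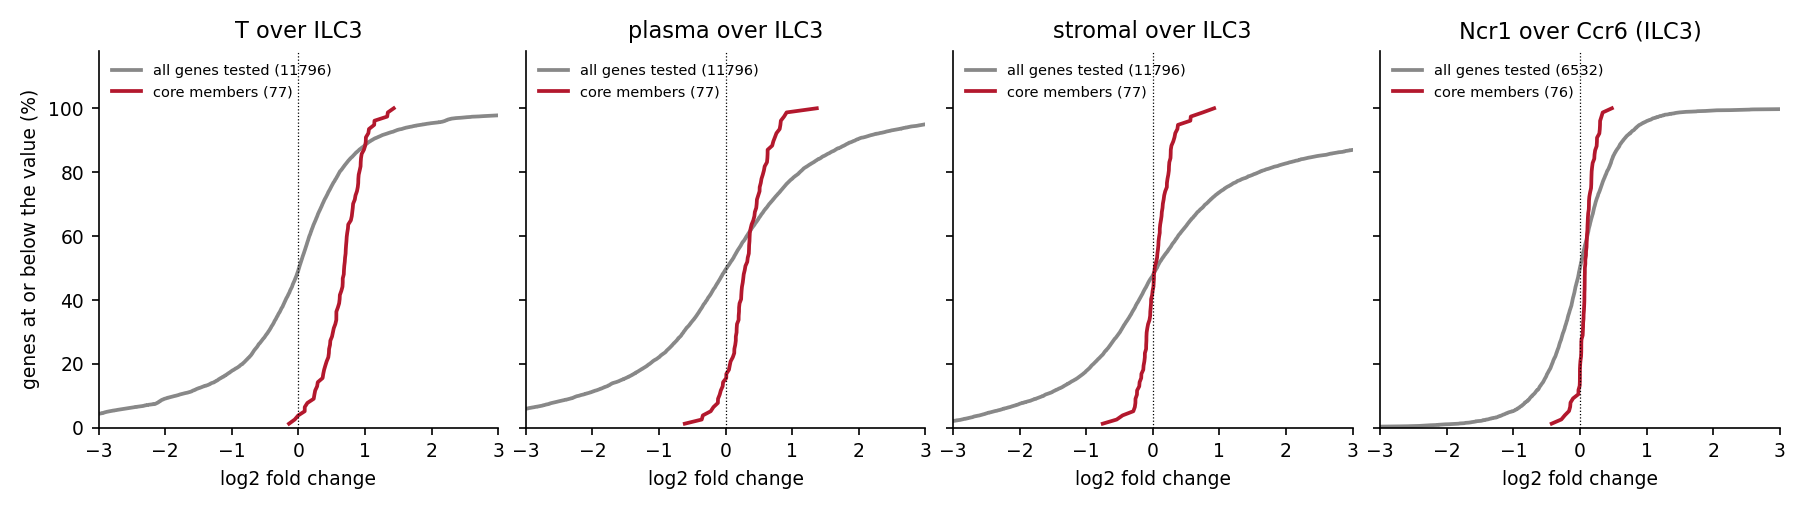
Cumulative percent of genes (vertical axis) at or below each log2 fold change (horizontal axis) for core ribosomal protein genes and all genes tested, in each of the 4 comparisons. Core members lie to the right of all genes in T over ILC3, with a median of 0.69 against 0.01, and near 0 in stromal over ILC3 and Ncr1 over Ccr6.

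Rpl13a, a large-subunit protein (ENSMUSG00000074129.14, chromosome 7, 45125558 to 45128761, GRCm38, minus strand), had the largest fitted log2 fold change among the core members. Its level was 57.1 and 61.4 CPM in ILC3s and 179 and 145 CPM in T-gated cells. These values did not overlap, and edgeR gave a log2 fold change of 1.43 ± 0.278 (SE) at an adjusted p of 4.5e-05. Rpl12 (ENSMUSG00000038900.17, chromosome 2, 32961559 to 32965345, plus strand), which lies at the base of the stalk that recruits translation factors, had 343 and 460 CPM in ILC3s and 815 and 1237 CPM in T-gated cells. Both T-gated values were above both ILC3 values, and edgeR gave a log2 fold change of 1.34 ± 0.332 (SE) at an adjusted p of 0.0014. Rpsa (ENSMUSG00000032518.6, chromosome 9, 120127689 to 120132369, plus strand) is a small-subunit protein also known as the laminin receptor precursor. It stood at 371 and 355 CPM in ILC3s and 928 and 901 CPM in T-gated cells, and rose by 1.33 on the log2 scale (SE 0.325, adjusted p = 0.0011 by edgeR). Rps4x, the X-linked small-subunit gene, had 754 and 737 CPM against 1649 and 1637 CPM, with a log2 fold change of 1.14 (adjusted p = 0.0071 by edgeR). Rps15a followed at the same log2 fold change of 1.14, with 396 and 349 CPM against 729 and 902 CPM.

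The other 15 called core members rose by 0.86 (Rps18) to 1.06 (Rps13) on the log2 scale. Among them Rplp0, the stalk protein that holds the P1 and P2 dimers, had 425 and 417 CPM in ILC3s and 856 and 841 CPM in T-gated cells (log2 fold change 1.01, adjusted p = 0.016 by edgeR). Its partners were not called: Rplp1 had 1586 and 1919 against 1670 and 2486 CPM, and Rplp2 had 1089 and 1332 against 1294 and 1898 CPM. Rpl31, of the large subunit near the exit of the tunnel, had the lowest value, with 935 and 1058 CPM in ILC3s and 836 and 971 CPM in T-gated cells and a log2 fold change of -0.14. Rpl21 had a log2 fold change of 0.00. Neither passed the test in either direction.

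**Figure D3:**
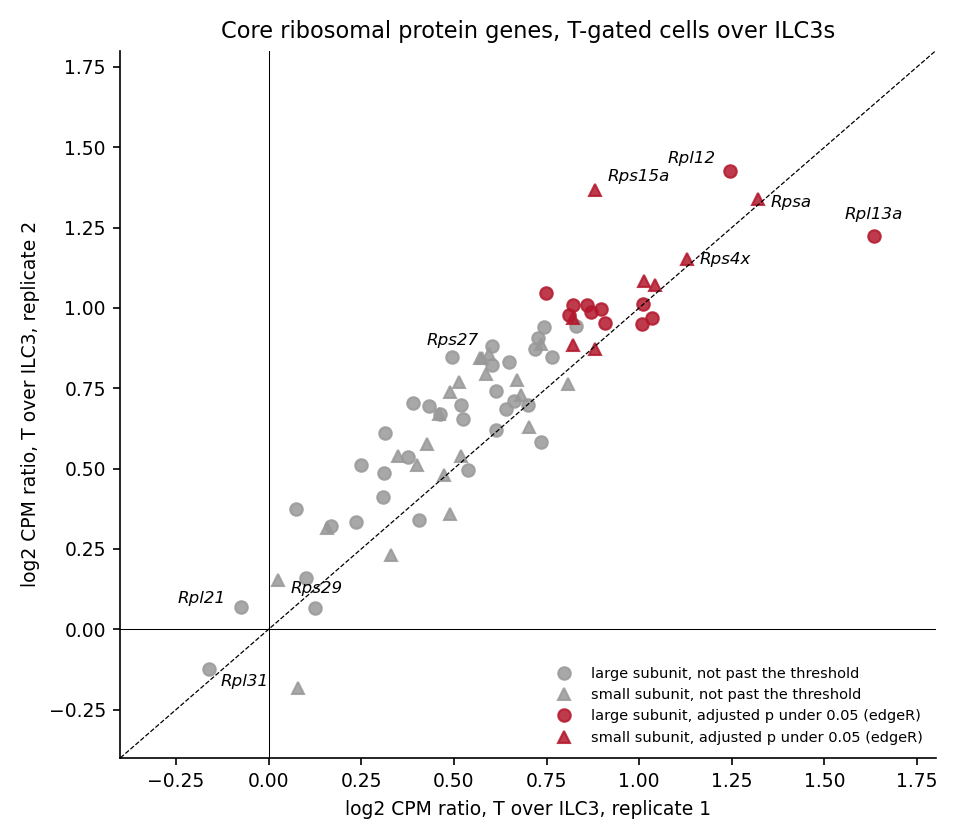
Log2 CPM ratio of T-gated cells over ILC3s in replicate 1 (horizontal axis) and replicate 2 (vertical axis) for 76 core members, without the nearly undetected Rps10. Circles are large-subunit and triangles small-subunit genes, red marks the called genes, the dashed line marks equal ratios, and 73 of all 77 core members have both ratios above 0.

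Plasma-gated cells showed higher levels of a few core members. By edgeR 5 of 77 were called higher and none lower, that is 6.49% against 16.2% of all genes called higher and 18.2% called lower. At an unadjusted p under 0.05, 10 were higher and 0 lower (20.6% and 22.1% of all genes), and DESeq2 called 25 higher (10.4% of all genes) and 1 lower (13.6%). Rpl41, the smallest ribosomal protein, had 488 and 541 CPM in ILC3s and 1385 and 1249 CPM in plasma-gated cells. The values did not overlap, and it rose by 1.37 on the log2 scale (SE 0.328, adjusted p = 6.3e-04 by edgeR). Rps28 was next, with 780 and 1026 against 1757 and 1559 CPM (0.92). Rpl32 (0.83) and Rpl7a (0.82) were also called. Rps28, Rpl32 and Rpl7a were called higher over ILC3s in T-gated cells too, with log2 fold changes of 1.05, 0.92 and 0.98. Rpl41 was not called there (0.70).

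The median log2 ratio of the 77 core members in this comparison was 0.59 in replicate 1 and -0.05 in replicate 2, whose plasma sum held 26 cells. That of all genes was 0.09 and -0.60, and the fitted median was 0.30 against 0.02 for all genes. In the plasma sum of replicate 2, 1 UMI is 7.06 CPM, so genes at low levels can fall to 0 UMIs there. How far depth sets the gap between core members and the median gene in replicate 2 was not tested. Without cycling cells, an alternative added after seeing the data, 1 core member was called higher (14.5% of all genes) and 1 lower (16.4%), with a median of -0.01. With library totals and no TMM factor 24 were called lower (43.8% of all genes), with a median of -0.57, while the median of all genes moved to -0.87. Dropping the factor shifts all genes of a sum alike, so the gap between core members and the median gene is not a separate check.

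On the TMM scale, stromal-gated cells had core levels near those of ILC3s. Only Rps4x was called higher by edgeR and none lower, or 1.30% of the 77 against 27.2% of all genes called higher and 20.2% called lower. At an unadjusted p under 0.05, 2 were higher and 0 lower (29.7% and 23.2% of all genes), and DESeq2 called 7 higher (20.1% of all genes) and 0 lower (12.3%). Rps4x (ENSMUSG00000031320.9, chromosome X, 102184941 to 102189394, minus strand) had 754 and 737 CPM in ILC3s and 1339 and 1478 CPM in stromal-gated cells, without overlap (0.92 ± 0.330, SE, on the log2 scale, adjusted p = 0.017 by edgeR). With TMM, the median of the core members was 0.03 against 0.06 for all genes, with -0.12 in replicate 1 and 0.20 in replicate 2 (0.09 and 0.01 for all genes). The Rps4x call was lost with library totals and no TMM factor. That setting called 0 core members higher (22.0% of all genes) and 2 lower (32.6%). It put the core median at -0.34 and the median of all genes at -0.32, so the level relative to ILC3s depended on the scaling.

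Within ILC3s, 1 core member was called between the Ncr1 and Ccr6 subsets, a smaller share than of all genes. Rpl38, a large-subunit protein known for its part in translating Hox messenger RNAs, had 1282 and 1650 CPM in the 46 and 129 cells with Ncr1 and 840 and 1252 CPM in the 47 and 149 cells with Ccr6. It was higher with Ncr1 in both replicates and rose by 0.48 on the log2 scale (SE 0.104, adjusted p = 0.0084 by edgeR). It was 1 of 76 core members called higher (1.32%) against 2.22% of all 6532 genes, and none was called lower against 2.39% of all genes. At an unadjusted p under 0.05, 7 of 76 were higher (9.21%, against 7.15% of all genes) and 1 lower (1.32% against 7.85%). The call was lost without the replicate block and with DESeq2, which called 0 core members in either direction (0.956% of all genes higher and 1.38% lower). The median log2 fold change of the core members was 0.08, at 0.08 in both replicates, against 0.00 for all genes. A CD3 or T cell receptor UMI was present in 31 and 64 Ncr1 cells and in 16 and 49 Ccr6 cells. Whether this bears on the Rpl38 level was not tested.

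The make-up of the ribosomal protein UMIs was also compared, as each member's share of the core UMIs of its class over its share in ILC3s. This measure does not depend on how classes are scaled. Of 76 core members with at least 20 UMIs in every sum, 64 stayed within 0.5 on the log2 scale in both replicates in T-gated cells, and 70 of 76 did in stromal-gated cells and 63 of 74 in plasma-gated cells. In T-gated cells Rpsa (0.74 and 0.63), Rpl12 (0.66 and 0.72) and Rpl13a (1.07 and 0.52) took larger parts. Rps29 (-0.56 and -0.56), Rpl21 (-0.66 and -0.64) and Rpl31 (-0.75 and -0.84) took smaller ones. Rpl31 thus made up 1.71% and 1.69% of core UMIs in ILC3s and 1.02% and 0.948% in T-gated cells.

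In plasma-gated cells the members past 0.5 or -0.5 were others, apart from Rpl21. Rpl41 held 0.892% and 0.866% of core UMIs in ILC3s and 1.76% and 2.03% in plasma-gated cells, a log2 ratio of 0.98 and 1.23. Rps28 and Rpl32 also lay above 0.5 in both replicates, and Rps27, Rpl21 and Rplp1 below -0.5. In stromal-gated cells Rps4x (0.94 and 0.80) and Rpl36a (0.75 and 0.64) lay above, and Rplp2 (-0.66 and -0.55) below. Rpl21 was below -0.5 in both T-gated and plasma-gated cells, and at -0.57 and -0.45 in stromal-gated cells. Some shifts past the limit in 1 class had the same direction in the others. Rps28 was at 0.43 and 0.37 in T-gated and 0.58 and 0.45 in stromal-gated cells. Rps4x was at 0.55 and 0.44 in T-gated and 0.470 and 0.498 in plasma-gated cells. Rpl41 was at 0.12 and -0.01 in T-gated and 0.13 and 0.03 in stromal-gated cells. All of these ratios share the ILC3 sums as their base, so a member that is high or low there moves in every class.

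**Figure D4:**
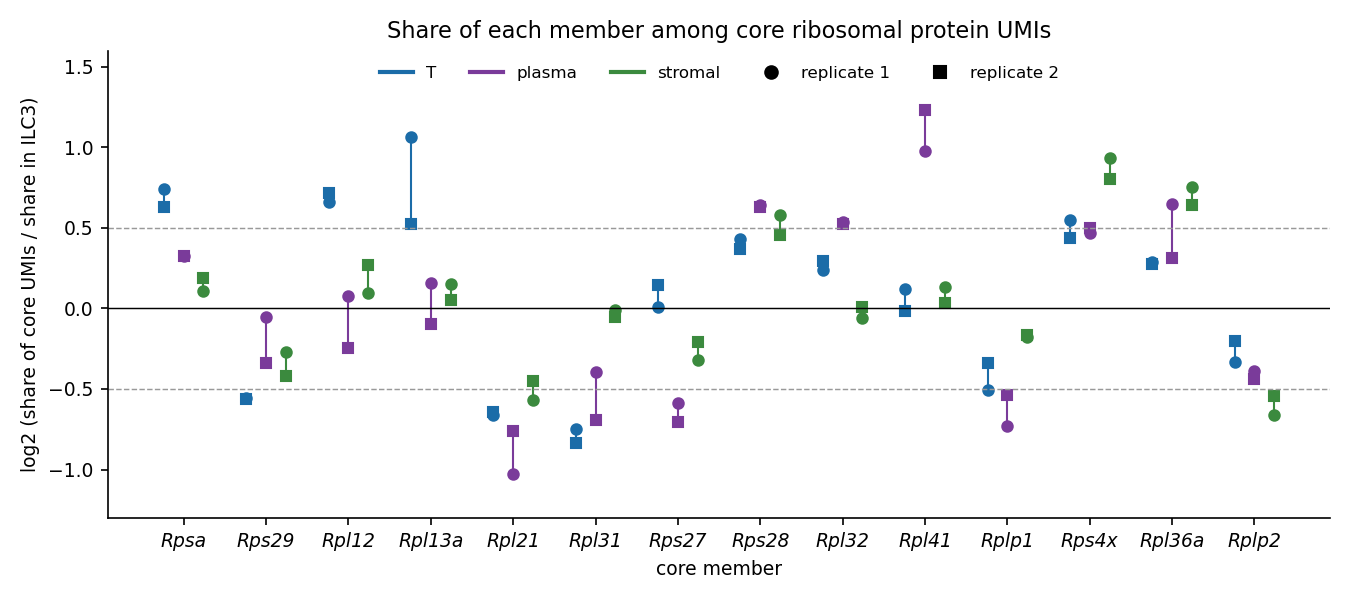
Log2 ratio of each member's share of core ribosomal UMIs to its share in ILC3s (vertical axis), for 14 core members past 0.5 in the same direction in both replicates in some class. Circles and squares are replicates 1 and 2, joined by a line, dashed lines mark 0.5 and -0.5, and Rpl41 in plasma-gated cells is the highest at 0.98 and 1.23.

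Members particular to a class were sought as those with at least 2-fold the CPM of every other fitted class in both replicates and at least 20 UMIs there. Only Rps27l in plasma-gated cells met this, at 2.89 and 3.09 times the next class, among 91 members, while 1.36% of all genes met it for plasma-gated cells. No member met it for T-gated (1.94% of all genes), ILC3s (2.26%) or stromal-gated cells (13.3%). The members were chosen here on these values, so this is a description with no test. Rps27l (ENSMUSG00000036781.13, chromosome 9, 66946086 to 66949516, plus strand) is a paralog of Rps27 that p53 is known to induce. It had 211 and 233 CPM in plasma-gated cells, 73.2 and 75.3 in stromal-gated, 32.3 and 46.6 in ILC3s and 23.5 and 20.3 in T-gated cells. Plasma-gated cells lay above the 3 other fitted classes, from 515 and 33 UMIs. DC-gated cells, which were not fitted, had 72 and 8 UMIs. As CPM of all UMIs, with no TMM factor, DC-gated cells had 131 and 141 and plasma-gated cells 139.7 and 167, so these classes overlapped on that total. In replicate 1 its CPM in cycling plasma cells was 1.03 times that in non-cycling ones. Just outside the rule lay Rpl13a in T-gated cells, at 1.95 and 1.97 times the next class. Rps6kc1 in stromal-gated cells had 4.83 and 1.95, from 78 and 26 UMIs. Rps6ka3 in ILC3s had 1.72 and 1.77, and Rps6ka1 in plasma-gated cells 2.09 and 1.703.

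Against ILC3s, edgeR called Rps27l higher in plasma-gated cells (2.47 ± 0.296, SE, on the log2 scale, adjusted p = 4.2e-10) and in stromal-gated cells (0.90, adjusted p = 0.0053), and lower in T-gated cells (-0.91, adjusted p = 0.023). Rps27 itself did not pass the test in any of these comparisons. Rpl36al, a paralog of Rpl36a, was called higher in plasma-gated cells, with 59.1 and 14.1 CPM against 8.95 and 6.73 CPM (2.38, adjusted p = 3.3e-05 by edgeR), but from 144 and 2 UMIs, and DESeq2 did not call it. Rpl22l1, a paralog of Rpl22, had 200 and 208 CPM in ILC3s and 236 and 280 CPM in T-gated cells and passed in no comparison. Rps27rt, a retrogene near-identical to Rps27, and Rpl7l1, an assembly factor, were not called either.

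The S6 kinases are a family of signalling enzymes named for the ribosomal protein that some of them phosphorylate. Those of the RSK family act below ERK, and Rps6kb1 and Rps6kb2 act below mTORC1. Rps6ka3, of the RSK family, was highest in ILC3s, at 189 and 222 CPM, with 110 and 126 in stromal-gated, 80.3 and 87.4 in T-gated and 26.7 and 21.2 in plasma-gated cells. The 4 classes did not overlap. It was called lower by edgeR in T-gated (-1.29, adjusted p = 2.5e-04), plasma-gated (-2.93, adjusted p = 7.1e-10) and stromal-gated cells (-0.80, adjusted p = 0.012). Rps6ka1, also of the RSK family, ran the other way in lymphoid classes, with 7.57 and 18.4 CPM in ILC3s, 32.3 and 41.4 in T-gated and 67.7 and 70.6 in plasma-gated cells. It was called higher in T-gated (1.45) and plasma-gated cells (2.62) and lower in stromal-gated cells (-1.65). In stromal-gated cells it had 1.42 and 7.85 CPM, from 4 and 15 UMIs, and these values overlapped those of ILC3s.

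Rps6kb2 was called lower in T-gated (-0.77) and stromal-gated cells (-1.02), with 46.1 and 50.7 CPM in ILC3s, 24.5 and 31.1 in T-gated and 25.6 and 21.5 in stromal-gated cells. Rps6kb1, the main kinase of Rps6, had 92.2 and 97.9 CPM in ILC3s and was called in no comparison. Rps6kc1 was called higher in stromal-gated cells (1.65), with 27.7 and 13.6 CPM against 4.82 and 6.99 CPM. Rps6ka4, a nuclear kinase of the MSK family, was called nowhere. Of the genes too low for the naming rule, Rps6ka2 was called higher in plasma-gated cells on 17 and 1 UMIs there. Rps6ka5 was called lower there on 9 and 0 UMIs, where 0 UMIs allow up to 21.2 CPM, more than its 15.8 and 6.99 CPM in ILC3s. Rpl10l, Rpl3l, Rpl39l, Rps6ka6 and Rps6kl1 had at most 9 UMIs and were not tested.

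**Figure D5:**
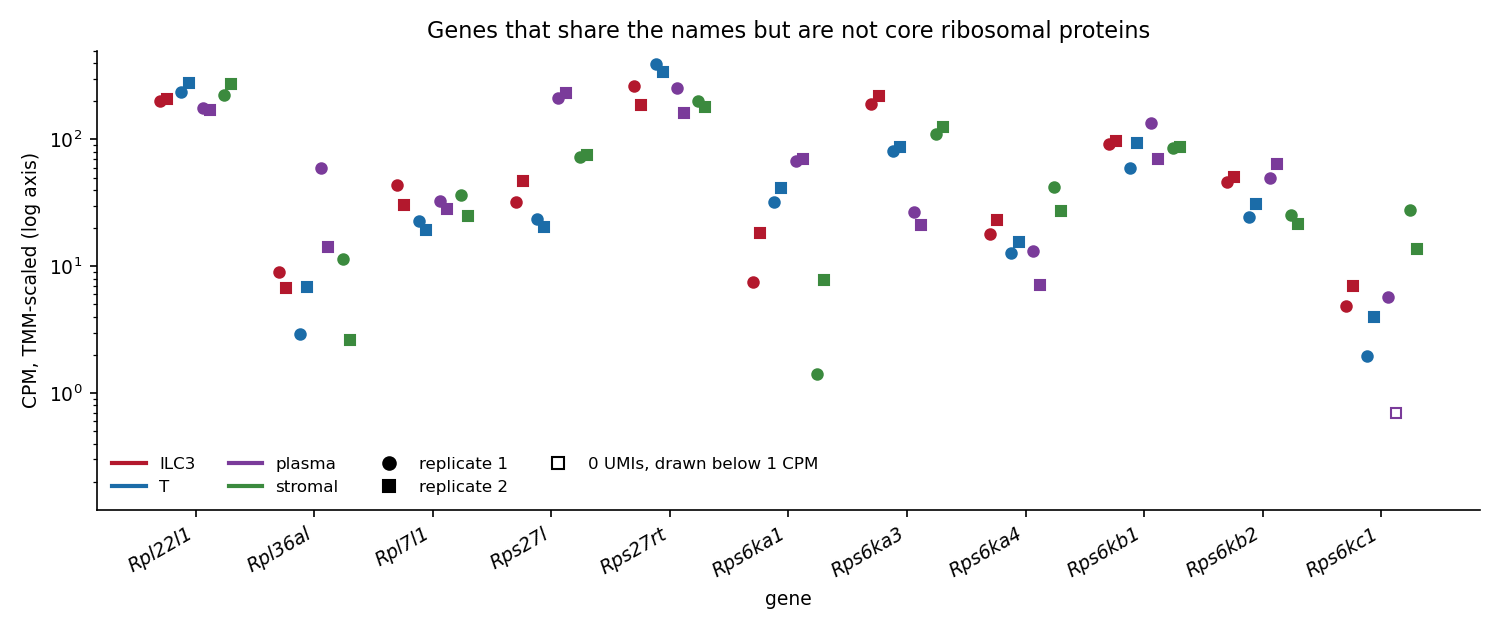
CPM on a log axis, TMM-scaled, of the 11 genes with ribosomal names that are not core proteins and reach 20 CPM in some class. Colours are classes and symbols are replicates; Rps27l stands highest in plasma-gated cells at 211 and 233 CPM, and Rps6ka3 highest in ILC3s at 189 and 222 CPM.

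Genes that work with the ribosome were taken from lists, and their counts stand beside the shares of all genes that edgeR called in the same comparison. Of the ribosomal genes with other names, Rack1, a scaffold on the small subunit, rose in T-gated cells, with 499 and 483 against 1004 and 904 CPM (log2 fold change 0.95, adjusted p = 0.025 by edgeR). Fau, which encodes a small-subunit protein fused to a ubiquitin-like one, had 665 and 656 against 1009 and 1168 CPM and did not pass. Of 37 translation factors, 5 were called higher in T-gated cells (13.5%, against 9.23% of all genes) and 1 lower (2.70% against 13.4%), with a median of 0.31. Eef2, the elongation factor that moves the ribosome along, had 642 and 565 CPM in ILC3s and 1184 and 1117 CPM in T-gated cells (0.93), and Eif3f, of the initiation factor complex eIF3, 178 and 188 against 327 and 345 CPM (0.87). Pabpc4, a poly(A)-binding protein, fell by 1.21.

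Of 42 ribosome biogenesis genes, which process ribosomal RNA and build the subunits, 1 was called higher in T-gated cells, Rrp1b (18.6 and 15.0 against 33.3 and 30.6 CPM), and none lower, with a median of 0.19. That is 2.38% higher, against 9.23% of all genes. Plasma-gated cells had 3 called higher, among them Gnl3 (75.01 and 78.2 against 246 and 120.0 CPM), and 1 lower, Nop10 (7.14% and 2.38%, against 16.2% and 18.2% of all genes). In stromal-gated cells 7 of the 42 were lower, among them Ddx21 and Nhp2, and 1 was higher, Nop2 (16.7% and 2.38%, against 20.2% and 27.2% of all genes). Translation factors were called higher in plasma-gated cells in 7 of 37 (18.9%, against 16.2% of all genes), with Eif5b first (105 and 116 against 381 and 254 CPM), and in stromal-gated cells 0 were higher and 1, Eif5, lower (27.2% and 20.2% of all genes). Between the ILC3 subsets only Pabpc1 of this list was called, higher with Ncr1 (0.36), as were 2.22% of all genes.

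Of 20 regulators of mTORC1 and of ribosomal protein genes, 2 were called higher and 2 lower in T-gated cells (10% each, against 9.23% and 13.4% of all genes). Myc, a transcription factor that drives ribosome production, had 10.3 and 8.80 CPM in ILC3s and 13.7 and 30.3 CPM in T-gated cells (1.36, adjusted p = 0.0031 by edgeR). Its partner Max had 60.6 and 42.5 against 99.9 and 90.3 CPM (0.92). Deptor, an inhibitor of mTOR, had 35.8 and 27.4 against 15.7 and 14.0 CPM (-1.07). Mycn, a relative of Myc, had 6.19 and 5.18 CPM in ILC3s and 0 UMIs in T-gated cells, which allows up to 2.94 and 0.792 CPM. In plasma-gated cells 6 were higher (30%, against 16.2% of all genes), with Eif4ebp1, a translation repressor that mTORC1 inactivates, at 2.06 and 2.07 against 14.4 and 14.1 CPM from 35 and 2 UMIs, and 2 were lower, Deptor and Max (10% against 18.2%). Stromal-gated cells had 5 higher (25%, against 27.2% of all genes) and none lower (20.2%), with Eif4ebp1 at 23.8 and 17.8 CPM and Myc at 50.8 and 49.7 CPM.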

How the data were processed

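Cells of 2 replicates (sample tag 4 of one capture and sample tag 2 of another) were used. The values are UMI counts per cell and gene, not normalised, deposited by the authors. The pipeline was, per the file headers, BD WTA Multiplex Rhapsody 1.8 on GRCm38 with GENCODE vM19 genes. The sample tags are, per the file headers, calls of the same pipeline, names other than a number. Bowtie2 and HISAT2 2.0.5 stand in the submitters' processing notes with no stated role. Both libraries of a replicate share a table and count as 1 sample.

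Cells under 300 genes or over 25% mitochondrial UMIs were dropped. Scrublet (scanpy 1.11.5) removed 39 (2.01%) and 6 (0.143%) cells, so doublets must be taken as present in replicate 2. UMIs were summed per replicate and class where both replicates had at least 20 cells (ILC3, T, plasma and stromal). The planned comparisons of DC and macrophages with ILC3s could not be fitted. The quasi-likelihood test of edgeR 4.0.16 (R 4.3.3) was run two-sided on the 8 sums with TMM, filterByExpr and replicate as a block, since the classes of a replicate come from the same tagged cells. The Benjamini-Hochberg adjustment ran over 11796 genes, and the threshold was 0.05. ILC3 subsets were fitted likewise on 6 sums and 6532 genes. The fits left 3 and 2 residual degrees of freedom and borrowed 57.0 and 16.3 prior ones, and low p-values lean on the spread of other genes. The block takes out differences in level between the replicates. P-values therefore rest on how far the class differences varied between these replicates, a spread that may be technical. All comparisons with ILC3s share the ILC3 sums. The SE is the absolute log2 fold change over the square root of F. Per-replicate log2 ratios use a pseudocount of 1 CPM.

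On data simulated for T over ILC3 with 11300 genes, 42 of 100 genes changed 2-fold were found and 100 of 100 changed 4-fold. Among 146 calls, 4 were wrong. Only 200 genes were changed in the simulation, against 2664 genes called in either direction in T over ILC3 in the measured data. The rates of found and wrong calls therefore describe the simulated data only. Whether they hold for the measured genes was not tested. Intervals and the limit of 3 UMIs for a count of 0 cover counting error only.

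The members, panels and lists were chosen with earlier results of these data known. Named were the 4 called core members of largest change per direction with a mean of at least 50 CPM, other members reaching 20 CPM in some class, the 5 highest and lowest core members, class-specific members, Fau and Rack1, and the 2 largest called changes per list and direction. Core members without a call, the further called members and those under 20 CPM that are named, and the composition ratios, were chosen after their values were seen. Alternatives covered scaling, test, filter, gate, depth, doublets, cell filter and block. DESeq2 was 1.42.0. Gene positions are from GENCODE vM21 (GRCm38). Some genes are not reported here.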

Additional observations from a re-analysis of the deposited data

How the results depend on the processing

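Depth limits the members under 20 UMIs in a sum, and the plasma sum of replicate 2 held 26 cells. All counts of calls are members called by edgeR unless DESeq2 is named, with 91 members tested for the classes and 85 for the subsets in the main fit. Percentages in brackets are the shares of all genes called in the same direction under the same setting. In T over ILC3, 21 members were higher (9.23%) and 3 lower (13.4%). The higher count was 46 (6.86%) with no low-count filter, 53 (5.32%) with DESeq2, 41 (9.75%) with immunoglobulin and mitochondrial genes left out and 61 (16.6%) with only the compared classes fitted, and without the replicate block it was 8 higher (5.77%) and 1 lower (9.90%). In plasma over ILC3, 9 were higher (16.2%) and 2 lower (18.2%). The counts were 3 (826 of 11796 genes) and 31 (43.8%) with library totals and no TMM, 5 (14.5%) and 1 (16.7%) without the replicate block, and 3 (12.3%) and 1 (11.9%) in cells thinned to 1500 UMIs. The higher count there was 15 (10.6%) with no filter, 27 (10.4%) with DESeq2, 20 (16.1%) with those genes left out, 23 (16.5%) with only the compared classes and 5 (14.5%) without cycling cells. In stromal over ILC3, 3 were higher (27.2%) and 3 lower (20.2%). The counts were 1 (22.0%) and 6 (32.6%) with library totals, and the higher count was 9 (20.1%) with DESeq2, 8 (29.9%) with those genes left out and 5 (27.3%) with the wider gate. In Ncr1 over Ccr6, 1 was higher (2.22%) and 0 lower (2.39%). The higher count was 0 (0.765%) without the replicate block, 0 (0.956%) with DESeq2 and 4 (4.00%) with the wider gate. With library totals, Rpl32 and Rpl7a in plasma over ILC3 went to -0.043 and -0.045, and the core median to -0.57. That median was -0.0075 without cycling cells and ranged from -0.045 to 0.59 with a replicate left out. The T over ILC3 median ranged from 0.60 to 0.74 with a replicate left out and from 0.61 to 0.73 over the other alternatives. The mean ribosomal share was 8.03% in ILC3s, 11.8% in T-gated and 10.99% in plasma-gated cells with immunoglobulin and mitochondrial genes left out of the total. The share of all UMIs was 4.88% in plasma-gated cells and 3.56% without cycling cells. With a replicate left out, the share of all UMIs ranged from 7.06% to 7.80% in ILC3s, 10.7% to 11.3% in T-gated, 4.48% to 5.28% in plasma-gated and 4.89% to 7.10% in stromal-gated cells. Of the other counts and shares, 122 stayed within 1.5 times or 1 SD of their value. Of 42 called members, 21 lost the call without the replicate block and 13 in thinned cells, which hold fewer UMIs. Apart from fewer UMIs in thinned cells, the cause of these changes was not tested. ILC3s without a CD3 or TCR UMI gave no subset comparison, since Ncr1 cells were under 20 in replicate 1. The alternatives for cycling cells, TCR UMIs, TMM from genes outside the members, the depth band and only the compared classes were chosen after seeing the data.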

Other observations

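Mitochondrial ribosomal proteins, which build the separate ribosome of the mitochondrion, were described alongside, on a list taken by the name prefixes Mrpl and Mrps after the data had been seen. In plasma-gated cells 35 of 77 were called higher than in ILC3s by edgeR and 2 lower, with a median log2 fold change of 1.01 against 0.30 for the cytosolic core members and 0.02 for all genes. All genes were called higher in 16.2% and lower in 18.2%. The median was 1.10 in replicate 1 and 0.14 in replicate 2, whose plasma sum held 26 cells, and that of all genes was 0.09 and -0.60. Mrpl47 had 2.75 and 2.85 CPM in ILC3s and 18.05 and 14.1 CPM in plasma-gated cells, from 44 and 2 UMIs there. T-gated cells had 12 of 77 higher (15.6%, against 9.23% of all genes) and 1 lower (1.30% against 13.4%) with a median of 0.25. Stromal-gated cells had 15 higher (19.5% against 27.2%) and 3 lower (3.90% against 20.2%), also with a median of 0.25.

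Mrpl9, a large-subunit protein of the mitochondrial ribosome, was the one called lower in T-gated cells. It stood at 246 and 241 CPM in ILC3s, 104 and 102 in T-gated, 52.5 and 28.2 in plasma-gated and 37.3 and 74.3 in stromal-gated cells, and both ILC3 values lay above all others. By edgeR its log2 fold change was -1.25 in T-gated (adjusted p = 7.4e-04), -2.29 in plasma-gated and -2.16 in stromal-gated cells. Within ILC3s it was 289 and 352 CPM with Ncr1 and 193 and 204 CPM with Ccr6 (log2 fold change 0.71, adjusted p = 0.032 by edgeR).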
